A study of Mus musculus with 8 samples.

Results

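Expression in lung tumour nodules was compared between the 4 libraries from mice that received an antibody against PD-1 and the 4 libraries from mice that did not, with JQ1 as a covariate. The treatment label of each library chose the members, and all 8 of the 8 libraries of the series took part. All were labelled as tumour nodules of a gemm model, that is, a genetically engineered mouse model, on a mixed background. The side with the antibody held 2 libraries of anti-PD-1 alone and 2 of anti-PD-1 together with JQ1 (here the combination), and the side without it held 2 vehicle and 2 JQ1 libraries. Each side thus carried JQ1 in 2 of its 4 libraries, and the comparison asks which genes differ with the antibody whether or not JQ1 was given. The labels give no dose, schedule, age or promoter that drives a transgene, and do not state whether paired libraries of a treatment derive from different animals. P-values therefore reflect only how far these samples scatter, which may include technical scatter.

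PD-1, encoded by Pdcd1, is an inhibitory receptor of activated T cells that binds the ligands PD-L1 and PD-L2 on tumour and myeloid cells. Antibodies that block it are given to restore T cell activity against tumours, so genes of T cells, of cytotoxic granules and of the response to interferon gamma are those usually read with this treatment. JQ1 is a small molecule that displaces the BET bromodomain proteins from acetylated chromatin.

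Total counts ranged from 2719816 to 15224108 per library, with the lowest in a combination library, and 14085 of 52459 symbols passed the filter on low counts and were tested. Of the counts, ribosomal RNA took up 36.5% ± 14.9 (SD, n = 4) with the antibody and 27.0% ± 5.84 (n = 4) without it, with 46.0% and 52.5% in the combination libraries and between 21.8% and 35.0% in the other 6. The 4 against 4 difference in that share gave p = 0.314 and that in total counts p = 0.4 in two-sided exact permutation tests, for which the smallest possible p is 0.0286. By Xist and Y-linked counts 2 of the 4 libraries with the antibody and 1 of the 4 without it were female. The JQ1, anti-PD-1 and combination pairs each held a female and a male library, and so came from different animals. Both vehicle libraries were male, and for that pair these counts cannot tell. Marker genes of alveolar type 2 cells of the lung summed to 10233 to 14278 CPM in the libraries with the antibody and 8020.05 to 15385 CPM in those without.

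No gene passed an adjusted p of 0.05 for the antibody over both JQ1 backgrounds in edgeR's quasi-likelihood test (0 of 14085, 0%). The smallest adjusted p was 0.151, for Moxd1, and 1092 genes (7.75%) had an unadjusted p under 0.05. DESeq2, a second count model with the same additive design, called 66 genes (0.469%), 41 higher and 25 lower with the antibody, and limma voom and limma trend called 0. For JQ1, tested in the same edgeR fit and in libraries of the same number, 814 genes (5.78%) were called.

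Full separation compares the sides without a model. A gene is fully separated where its lowest level on one side is above its highest level on the other. Levels are counts scaled to library size by TMM factors (CPM). Of the 14085 genes tested, 367 (2.61%) were fully separated between the 4 libraries with the antibody and the 4 without it. Of the genes tested, 191 were higher (1.36%) and 176 lower (1.25%). In 8 values in random order, 4 against 4 are fully separated with a probability of 0.0286, and the share found was not above it. By JQ1 the same 8 libraries separated 2758 genes (19.6%). The median log2 fold change was 0.92 over the 191 genes and -0.89 over the 176, with 83 and 71 genes at a size of at least 1. Separation was narrow for most: the lowest library on the high side was a median of 1.09 times the highest on the low side in both directions. The widest gap was 2.35-fold for Ntrk2 among the higher genes and 2.09-fold for Moxd1 among the lower. The narrowest within the same limits were 1.0003-fold for Ciart and 1.0002-fold for Nsmf, while Gtf2b and Tmem185b missed separation with ratios of 0.9996 and 0.999. Of the genes matched to GENCODE, 179 of 188 higher and 156 of 170 lower genes were protein coding. The libraries were made with probes for coding regions, and the share over all genes tested is not given here, so these counts set no gene apart. The filter keeps a gene with enough counts in 2 libraries, so a gene can pass through the side where it is high alone. Without it, 518 of 26426 genes were separated. The split of 191 higher against 176 lower depended on scaling: with plain total counts in place of TMM factors, which moved the median of all genes to -0.28, it was 67 higher against 425 lower.

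**Figure D1:**
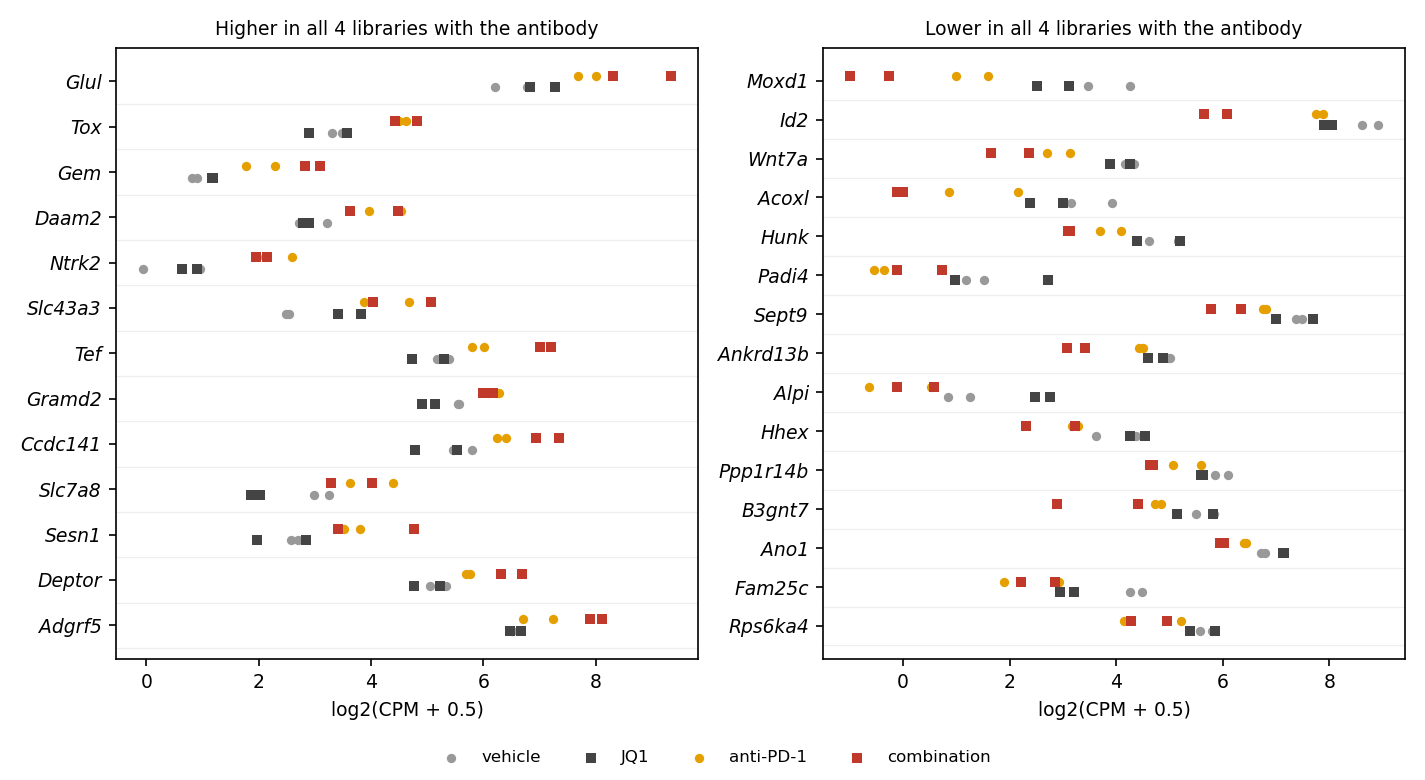
Levels of 28 fully separated genes named by rank, as log2(CPM + 0.5), in each of the 8 libraries, with the genes ordered by p from the top. Lines divide the genes, and within each gene's row the upper points are libraries with the antibody and the lower points are libraries without. In the left panel every antibody library lies to the right of every library without it, and in the right panel to the left.

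Among the genes higher with the antibody, Glul, which encodes glutamine synthetase (chromosome 1, 153899944 to 153909723, GRCm38), had the smallest p. Its level was 109 and 73.1 CPM in vehicle, 155 and 114 with JQ1, 256 and 205 with anti-PD-1, and 317 and 651 with the combination. All 4 antibody libraries were above all others, by 1.33-fold at the closest, and combination replicate 2 was the highest. The log2 fold change was 1.60 (SE 0.26), with an adjusted p of 0.163 in edgeR and 4.67e-05 in DESeq2. Tox (chromosome 4, 6686353 to 6991557), a high mobility group factor of T cell development and exhaustion that other tissues also express, was at 9.39 and 10.7 CPM in vehicle, 11.4 and 6.97 with JQ1, 24.2 and 22.1 with anti-PD-1, and 21.0 and 27.9 with the combination. The 4 antibody libraries lay close together and 1.84-fold or more above the rest, with a log2 fold change of 1.31 (SE 0.24). The adjusted p of Tox was 0.255 in edgeR and 0.000374 in DESeq2. Ntrk2, the receptor TrkB for brain-derived neurotrophic factor (chromosome 13, 58806569 to 59133970), was lower in level but had the widest gap of the ranked genes, at 0.458 and 1.43 CPM in vehicle, 1.36 and 1.05 with JQ1, 3.84 and 5.54 with anti-PD-1, and 3.37 and 3.96 with the combination. Its log2 fold change was 1.96 (SE 0.43), with 2.26 without JQ1 and 1.62 with it. Full separation itself fixes the shared sign of the last 2 values.

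Transporters and receptors were among the other ranked genes. Slc7a8, the neutral amino acid transporter LAT2, averaged 14.3 ± 4.91 CPM with the antibody against 5.80 ± 2.91 without it (SD, n = 4 on each side here and below), and Slc43a3, a transporter of purine nucleobases, 22.1 ± 8.84 CPM with the antibody against 8.57 ± 4.11 without it. Adgrf5, an adhesion G protein-coupled receptor that controls surfactant in alveolar type 2 cells, averaged 192 ± 78.7 CPM with the antibody against 92.8 ± 5.38 without it, and the combination libraries held its highest levels. Sesn1 and Deptor, both named by rank among the separated genes, encode inhibitors of the mTOR kinase pathway. Sesn1, a sestrin induced by p53, was at 5.50 and 5.97 CPM in vehicle, 6.71 and 3.40 with JQ1, 13.6 and 11 with anti-PD-1, and 10.1 and 26.7 with the combination. Deptor, which binds mTOR itself, was at 39.7 and 32.6 CPM in vehicle, 36.8 and 26.7 with JQ1, 51.1 and 53.8 with anti-PD-1, and 78.7 and 103 with the combination. The lowest antibody library exceeded the highest library without the antibody by 1.5-fold for Sesn1 and 1.29-fold for Deptor. DESeq2 gave adjusted p-values of 0.0233 and 0.0327, and edgeR gave 0.502 for both. Ddit4, another inhibitor of this pathway, overlapped between the sides, at 4.13 to 50.3 CPM with the antibody and 3.39 to 6.08 without it. Further ranked genes were Gem, a small GTPase of the RGK family (log2 fold change 1.74, SE 0.33), Daam2, a formin of Wnt signalling (1.34, SE 0.28), Gramd2 (0.85, SE 0.19), Ccdc141 (1.32, SE 0.29), and the clock gene Tef described with its group. Gem, at 1.26 to 1.78 CPM without the antibody and 2.91 to 8.0 CPM with it, had a gap of 1.63-fold.

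Among the genes lower with the antibody, Moxd1, a monooxygenase related to dopamine beta-hydroxylase (chromosome 10, 24223517 to 24302790), had the smallest p of all genes. Its level was 10.6 and 18.8 CPM in vehicle, 5.24 and 8.19 with JQ1, 2.51 and 1.5 with anti-PD-1, and 0 and 0.330 with the combination. The 4 antibody libraries held 54 counts in all against 610 in the others, and the highest of them was 2.09-fold below the lowest of the rest. The log2 fold change was -3.32 (SE 0.46), with an adjusted p of 0.151 in edgeR and 4.22e-07 in DESeq2. Id2, an inhibitor of basic helix-loop-helix factors (chromosome 12, 25093799 to 25097140), was at 484 and 393 CPM in vehicle, 238 and 265 with JQ1, 215 and 234 with anti-PD-1, and 67.3 and 49.4 with the combination. All 4 antibody libraries were lower than all others, but JQ1 replicate 1 and anti-PD-1 replicate 2 differed by only 1.02-fold, and the combination libraries were far below the rest. The log2 fold change was -1.53 (SE 0.25), with adjusted p-values of 0.163 in edgeR and 7.47e-05 in DESeq2. Moxd1 and Id2 were the 2 genes that edgeR called when the antibody effect was averaged over a mean per group in place of the additive fit. Wnt7a, a secreted Wnt ligand (chromosome 6, 91363981 to 91411363), was at 17.3 and 19.7 CPM in vehicle, 14.3 and 18.7 with JQ1, 6.01 and 8.26 with anti-PD-1, and 4.63 and 2.64 with the combination, a gap of 1.73-fold. Both antibody groups were below both others, which full separation itself requires, and the log2 fold change was -1.76 (SE 0.30).

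Acoxl, an acyl-CoA oxidase-like gene, averaged 1.55 ± 1.67 CPM with the antibody against 8.82 ± 4.2 without it, and its combination libraries were the lowest at 0.421 and 0.494 CPM. Hunk, a protein kinase, averaged 11.3 ± 4.08 CPM with the antibody against 29.0 ± 7.87 without it with a gap of 1.24-fold. Hhex, a homeobox factor of endoderm and blood, was at 20.2 and 11.8 CPM in vehicle, 18.8 and 22.7 with JQ1, 9.29 and 8.55 with anti-PD-1, and 8.84 and 4.45 with the combination. The 4 antibody libraries were at most 9.29 CPM and the others at least 11.8. Ano1, a calcium-activated chloride channel of secretory epithelium, was at 109.9 and 105 CPM in vehicle, 142 and 140.1 with JQ1, 83.8 and 85.7 with anti-PD-1, and 61.0 and 64.4 with the combination. Sept9, a septin of the cytoskeleton, averaged 88.9 ± 26.9 CPM with the antibody against 169.6 ± 33.2 without it. Rps6ka4, the kinase MSK2 downstream of ERK and p38, averaged 25.8 ± 9.25 CPM with the antibody against 50.2 ± 7.35 without it, with log2 fold changes of -0.93 without JQ1 and -0.98 with it. The other ranked genes were Padi4, a peptidylarginine deiminase (log2 fold change -2.57, SE 0.59), Alpi, intestinal alkaline phosphatase (-2.19, SE 0.56), B3gnt7, a glycosyltransferase of keratan sulphate chains (-1.32, SE 0.34), Ppp1r14b, an inhibitor of protein phosphatase 1 (-0.79, SE 0.20), Ankrd13b (-1.02, SE 0.26) and Fam25c (-1.35, SE 0.38). Padi4 and Alpi were low in every library, at most 6.10 and 6.29 CPM. Padi4 and Fam25c had larger differences without JQ1 (-3.06 and -1.97) than with it (-2.09 and -0.60).

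The antibody was given in 2 backgrounds, and most fully separated genes, like 69.4% of all genes tested, had the larger difference where JQ1 was present. Their median log2 fold change was 0.63 without JQ1 and 1.08 with it for the 191 higher genes, and -0.62 and -1.20 for the 176 lower genes. The size was larger with JQ1 in 138 of the 191 and 147 of the 176, and the share of the 191 was thus near that of all genes. In 66 higher and 70 lower genes both combination libraries lay beyond both anti-PD-1 libraries. Tested within a background, the antibody called 0 genes without JQ1 (0%, 278 or 1.97% at an unadjusted p under 0.05 in edgeR, 9 by DESeq2) and 3 with JQ1 (0.0213%, 1987 or 14.1% at an unadjusted p under 0.05, 410 by DESeq2). With JQ1, Per3, a period gene of the circadian clock, rose by 2.78 on the log2 scale (edgeR adjusted p 0.0431), Prdx6, a peroxiredoxin abundant in lung, rose by 2.70 (adjusted p 0.0431), and Id2 fell by 2.12 (adjusted p 0.0477). The count depended on single libraries: without combination replicate 1, the shallowest library, 100 genes were called, and leaving out JQ1 replicate 2 or any 1 of the vehicle and anti-PD-1 libraries left 0 calls.

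The difference between the 2 antibody effects was tested itself, and 0 genes passed (0%, 881 or 6.25% at an unadjusted p under 0.05 in edgeR, 16 by DESeq2), with a smallest adjusted p of 0.745. By the smallest interaction p, Prdx6 was at 102 and 104 CPM in vehicle, 108 and 86.9 with JQ1, 105 and 152 with anti-PD-1, and 498 and 766 with the combination, so that the combination libraries were the highest and the other 6 lay together. Antxr1 and Thbs3, genes of stromal cells, were lowest in the combination: Antxr1 at 13.5 and 10.5 CPM against 42.1 to 81.8 elsewhere, and Thbs3 at 6.73 and 4.61 against 29.1 to 61.4. Ribosomal RNA was highest in the same 2 libraries, and its part in these values was not tested.

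**Figure D2:**
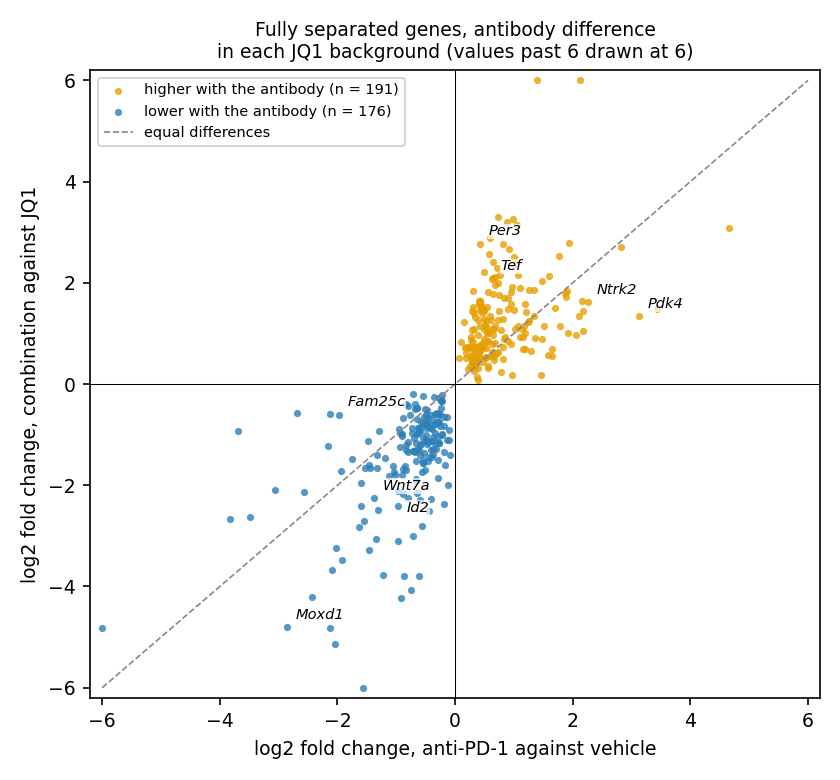
Log2 fold change of each of the 367 fully separated genes for anti-PD-1 against vehicle (horizontal) and for the combination against JQ1 (vertical), with values past 6 drawn at 6 and equal differences on the dashed line. Full separation itself places every point in the lower left or upper right quadrant, and fitted values of genes with few counts depend on the prior count. Most points lie further from 0 on the vertical axis, 138 of 191 above and 147 of 176 below, as do 69.4% of all genes tested.

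Of the 49 gene lists, circadian clock genes were the one with the most fully separated members. The lists were chosen with earlier results of these data known, so the counts below describe the list and do not test it. The clock is a feedback loop in which CLOCK and BMAL1 (Arntl) bind E-boxes and drive Per, Cry, Nr1d and PAR-domain factor genes, whose products feed back on the loop or drive D-boxes. Of 19 clock genes, all tested, 8 were fully separated, all higher with the antibody, beside 191 of 14085 genes (1.36%). No clock gene was called, 17 of the 19 had a positive fold change, and 10 had an unadjusted p under 0.05 in edgeR. The list median was 0.89, beside -0.0006 over all genes, and was 0.43 without JQ1 and 1.47 with it. It was 0.44 without the combination libraries, 0.56 with total counts scaling and 0.32 with a term for the ribosomal RNA share.

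The promoters of 4 of the separated clock genes are shown because they hold copies of the elements through which the loop is driven. Capitals mark the E-box CACGTG in Ciart, Per1 and Tef and the D-box TTATGTAA (either strand) in Per3. The sequences are from RefSeq (GRCm38.p6), each 300 bases from 250 before to 50 after a transcript start, 5′ to 3′ on the gene's strand: Ciart at chr3:95882179-95882478, minus strand, Per1 at chr11:69098699-69098998, plus strand, Tef at chr15:81802423-81802722, plus strand, and Per3 at chr4:151044616-151044915, minus strand.
Ciart: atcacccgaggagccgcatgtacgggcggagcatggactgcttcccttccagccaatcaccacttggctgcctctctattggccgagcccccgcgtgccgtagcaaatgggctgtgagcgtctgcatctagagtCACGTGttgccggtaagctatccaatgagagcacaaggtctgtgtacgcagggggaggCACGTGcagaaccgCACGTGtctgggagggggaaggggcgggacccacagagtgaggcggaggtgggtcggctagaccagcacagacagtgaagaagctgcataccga
Per1: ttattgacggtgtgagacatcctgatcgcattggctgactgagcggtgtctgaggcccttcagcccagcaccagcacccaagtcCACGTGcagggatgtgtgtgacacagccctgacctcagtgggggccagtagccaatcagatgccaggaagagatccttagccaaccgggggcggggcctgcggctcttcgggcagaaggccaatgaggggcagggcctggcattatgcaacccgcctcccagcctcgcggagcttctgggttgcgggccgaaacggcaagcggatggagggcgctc
Tef: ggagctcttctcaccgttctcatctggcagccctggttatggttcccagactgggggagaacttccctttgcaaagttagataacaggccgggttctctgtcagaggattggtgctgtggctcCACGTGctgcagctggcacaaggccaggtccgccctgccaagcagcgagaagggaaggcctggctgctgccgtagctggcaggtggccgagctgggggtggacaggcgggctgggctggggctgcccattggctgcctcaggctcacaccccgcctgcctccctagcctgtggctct
Per3: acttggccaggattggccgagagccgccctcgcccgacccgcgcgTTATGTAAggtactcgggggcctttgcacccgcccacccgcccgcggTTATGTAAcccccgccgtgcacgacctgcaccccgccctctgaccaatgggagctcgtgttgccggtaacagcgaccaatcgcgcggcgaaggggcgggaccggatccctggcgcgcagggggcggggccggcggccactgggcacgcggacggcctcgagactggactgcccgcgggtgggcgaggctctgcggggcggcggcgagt

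Ciart held 3 E-boxes, Per1 1 and Tef 1, and Per3 held 2 D-boxes. An E-box stood in 7.15% of all 32851 promoters of the table and in 9.63% of the 12824 of tested genes, and a D-box in 0.938% and 0.515%. The promoters of Hlf and Nr1d2 held neither, a second start of Per1 held no E-box and a second start of Tef held 1. Among the clock genes that did not separate, Cry1 and Bhlhe41 held 1 E-box each. Outside the clock list, B3gnt7 and Padi4, separated and lower, also held 1 each, while Id2 and Wnt7a, likewise lower, held 0. Fkbp5, which did not separate, held 1. Per2 and Bhlhe40 were not matched in the promoter table. A match describes these letters only.

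Of the period genes, which encode the repressors of the loop, Per1 was at 63.8 and 54.6 CPM in vehicle, 47.2 and 68.2 with JQ1, 86.7 and 70.4 with anti-PD-1, and 78.7 and 280.00 with the combination. Combination replicate 2 was far above the other antibody libraries, which exceeded the highest library without the antibody by as little as 1.03-fold. Without that library the log2 fold change of Per1 went from 1.02 (SE 0.40) to 0.43. Per2 was at 14.6 and 24.7 CPM in vehicle, 21.0 and 22.9 with JQ1, 27.9 and 25.3 with anti-PD-1, and 65.2 and 62.0 with the combination and Per3 at 14.5 and 16.0 CPM in vehicle, 16.2 and 9.24 with JQ1, 19.7 and 21.2 with anti-PD-1, and 79.5 and 93.9 with the combination. In both, the anti-PD-1 libraries were just above vehicle and the combination libraries stood well above all others. Without the antibody, JQ1 and vehicle overlapped in all 3 genes.

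The PAR-domain factors bind D-boxes. Tef had a log2 fold change of 1.35 (SE 0.30) and was at 35.8 and 41.3 CPM in vehicle, 39.1 and 25.9 with JQ1, 55.4 and 63.9 with anti-PD-1, and 148 and 128 with the combination, with the combination again the highest. Hlf was low, at 0.229 and 0.172 CPM in vehicle, 0.839 and 0.697 with JQ1, 2.79 and 1.69 with anti-PD-1, and 3.79 and 0.989 with the combination, and had its larger difference without JQ1 (3.43 against 1.49). Dbp, the other of these factors, overlapped between the sides with 3.66 to 8.57 CPM with the antibody and 0.872 to 5.35 without it.

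Among the nuclear receptors of the loop, Nr1d2, the repressor REV-ERB beta, was at 68.9 and 57.9 CPM in vehicle, 55.6 and 27.8 with JQ1, 93.4 and 77.3 with anti-PD-1, and 125 and 106 with the combination. Its paralogue Nr1d1 overlapped, with 45.9 to 210.4 CPM with the antibody and 11.9 to 112 without it.

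Ciart, a repressor of CLOCK and BMAL1, was at 1.15 and 0.631 CPM in vehicle, 0.839 and 1.22 with JQ1, 2.24 and 1.22 with anti-PD-1, and 2.95 and 16.3 with the combination. Its separation is the narrowest among the higher genes whose gaps were ranked. The activators did not separate: Arntl was at 12.2 to 28.2 CPM with the antibody and 20.05 to 24.4 without it, Clock at 70.3 to 93.6 and 66.0 to 96.7, and Npas2 at 3.79 to 16.2 and 8.55 to 17.9. The labels give no time of day for the collection of tissue.

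**Figure D3:**
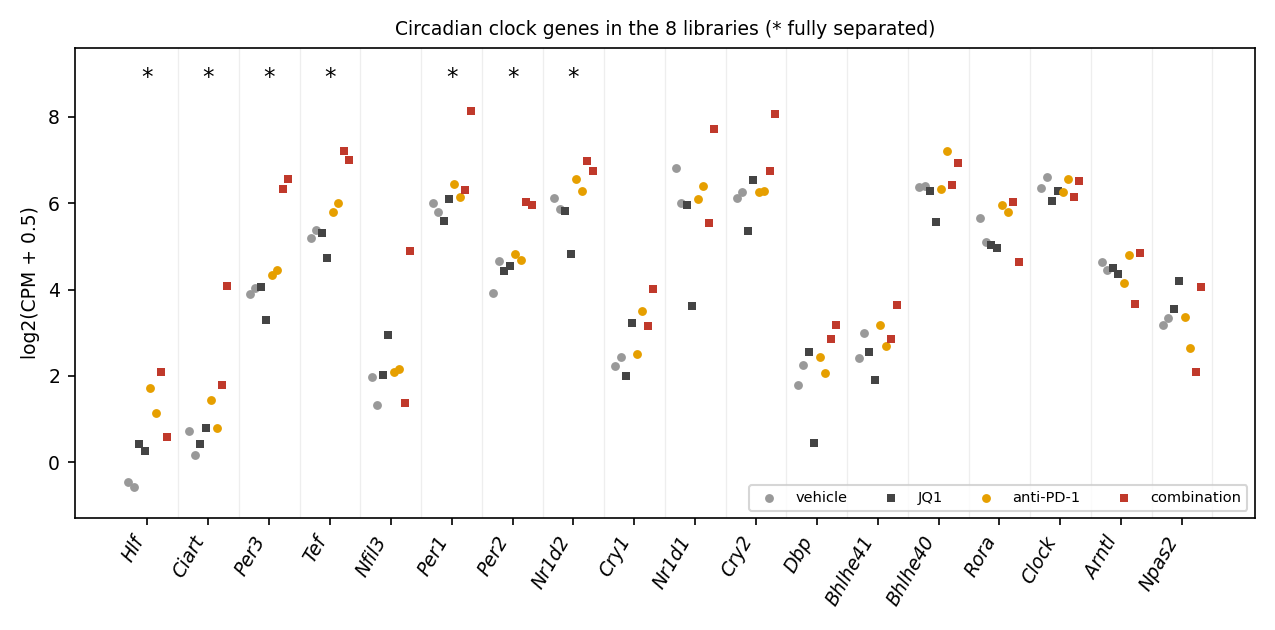
Levels of 18 of the 19 clock genes as log2(CPM + 0.5) in each of the 8 libraries, ordered by log2 fold change with the highest at the left, and with an asterisk over fully separated genes. The combination libraries are the highest for Per2, Per3, Tef and Nr1d2, and the activators Clock, Arntl and Npas2 at the right overlap between the sides.

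Genes induced by glucocorticoids and fasting leaned the same way. All 26 were tested, 25 had a positive fold change, 12 had an unadjusted p under 0.05 in edgeR, none was called, and 4 were fully separated (Per1, Klf9, Mt2 and Pdk4). Over all 14085 genes tested, 7034 had a positive fold change, 7.75% had such a p and 1.36% were fully separated and higher. The median of the list was 0.98, with 0.57 without JQ1, 1.38 with it, and 0.42 with a term for the ribosomal RNA share. The summed level was 1224 to 4191 CPM in the libraries with the antibody and 964 to 1211 CPM in those without. The sides did not overlap, but combination replicate 1 was only just above JQ1 replicate 1, and without combination replicate 2, the highest library, the antibody libraries reached 1899 CPM. Pdk4, a kinase that turns off pyruvate dehydrogenase in fasting, was at 3.59 and 4.30 CPM in vehicle, 4.51 and 6.62 with JQ1, 56.5 and 12.6 with anti-PD-1, and 15.6 and 12.9 with the combination. Every antibody library exceeded every other by at least 1.90-fold, and anti-PD-1 replicate 1 was far the highest. The log2 fold change was 2.27 (SE 0.53), with a DESeq2 adjusted p of 0.0025. Mt2, a metallothionein, was at 18.6 and 16.1 CPM in vehicle, 8.5 and 9.41 with JQ1, 26.4 and 43.3 with anti-PD-1, and 19.8 and 80.6 with the combination, and Klf9, a Krüppel-like factor induced by the glucocorticoid receptor, at 45.0 and 30.4 CPM in vehicle, 29.9 and 41.4 with JQ1, 52.2 and 50.9 with anti-PD-1, and 66.5 and 122 with the combination. Both were highest in combination replicate 2. Fkbp5, a co-chaperone of the glucocorticoid receptor, did not separate at 11.8 and 13.5 CPM in vehicle, 12.8 and 19.4 with JQ1, 16.0 and 23 with anti-PD-1, and 34.9 and 73.8 with the combination, since JQ1 replicate 2 was above anti-PD-1 replicate 1. Its log2 fold change was 1.19 (SE 0.33). Per1 belongs to both lists.

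On the lower side, Id1 and Id2 separated together with Tgfb2, the 3 fully separated members of 20 tested genes of TGF-beta and BMP signalling (median -0.17, 0.17 without JQ1 and 0.04 with a term for the ribosomal RNA share). Of all genes tested, 1.25% were fully separated and lower. Id1 was at 33.8 and 28.9 CPM in vehicle, 28.3 and 30.2 with JQ1, 27.9 and 10.5 with anti-PD-1, and 15.2 and 8.73 with the combination, with anti-PD-1 replicate 1 only 1.02-fold below the lowest library without the antibody and the other 3 well below it.

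Genes of proliferation and growth had negative medians that were near 0 without JQ1. DNA replication genes had a negative fold change in 24 of 25, with a median of -0.66, which was -0.08 without JQ1 and -1.44 with it. Mcm2, a subunit of the replicative helicase, was at 28.9 and 29.0 CPM in vehicle, 42.6 and 17.7 with JQ1, 23.6 and 20.2 with anti-PD-1, and 3.79 and 4.61 with the combination, so that the anti-PD-1 libraries lay within the range of the others and the combination far below. Mcm5 was likewise lowest in the combination, at 0.842 and 1.48 CPM. Replication-dependent histone genes had a median of -0.64 (-0.13 without JQ1), and mitosis genes -0.41 (0.08 without JQ1). With a term for the ribosomal RNA share the medians were -0.21 for DNA replication, -0.28 for histone and -0.21 for mitosis genes.

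Ribosome biogenesis genes had a negative fold change in 21 of 23 (median -0.43, -0.21 with that term), and 2 of them were fully separated and lower, beside 1.25% of all genes. Nop2, a methyltransferase of ribosomal RNA, was at 8.25 and 7.34 CPM in vehicle, 14.5 and 9.94 with JQ1, 3.84 and 4.88 with anti-PD-1, and 6.73 and 3.63 with the combination, and Fbl, fibrillarin, at 5.73 and 6.2 CPM in vehicle, 12.1 and 7.23 with JQ1, 4.47 and 4.32 with anti-PD-1, and 2.95 and 3.96 with the combination. For Nop2 the anti-PD-1 and combination libraries overlapped. Nop56, a partner of fibrillarin, had a log2 fold change of -1.12 (SE 0.37) without separation.

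Output genes of the MAPK cascade, which relays growth factor signals, had a negative fold change in 20 of 21 and a median of -0.52, -0.16 without JQ1 and -0.96 with it. With a term for the ribosomal RNA share that median was -0.09. Ereg, a ligand of the EGF receptor, was the fully separated member at 11.5 and 16.6 CPM in vehicle, 10.3 and 28.2 with JQ1, 10.2 and 7.51 with anti-PD-1, and 7.58 and 6.10 with the combination. Etv4 and Epha2 had log2 fold changes of -1.08 (SE 0.38) and -0.48 (SE 0.20). Transcription factors of lung epithelium had a negative fold change in 17 of 19 (median -0.43, -0.02 without JQ1 and -0.08 with the ribosomal RNA term), with Runx2 at -0.65 (SE 0.21) and only Id2 separated. Sox2, a factor of airway epithelium, was opposite and differed within groups, at 0 and 0.172 CPM in vehicle, 2.31 and 0 with JQ1, 4.40 and 0.751 with anti-PD-1, and 39.6 and 19.3 with the combination.

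Genes of T cells, the cells on which PD-1 acts, were near the limit of detection. In bulk tissue, fewer cells of a type and less RNA per cell cannot be told apart. Raw counts of Pdcd1 were 0 and 0 in vehicle, 0 and 0 with JQ1, 4 and 1 with anti-PD-1, and 1 and 2 with the combination. Counts of Pdcd1 were thus 0 in all 4 libraries without the antibody and at least 1 in all 4 with it, 8 reads in all. A count of 0 allows up to 3 counts per library, and 3 of the 4 antibody libraries held no more than that. Pdcd1 did not pass the filter on low counts and was not tested, so that its difference rests on these reads alone. Cd3e, a chain of the T cell receptor complex, had 1 and 10 in vehicle, 7 and 0 with JQ1, 17 and 10 with anti-PD-1, and 0 and 4 with the combination. Anti-PD-1 replicate 1 held the most, and combination replicate 1 held 0.

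Cd8a had at most 2 counts in any library, Cd4 at most 10, and Foxp3, the factor of regulatory T cells, at most 9. Ctla4, another inhibitory receptor, had 0 and 3 in vehicle, 0 and 7 with JQ1, 25 and 7 with anti-PD-1, and 0 and 2 with the combination. Gzmb, a protease of cytotoxic granules, had 1 count in all, and Ifng, interferon gamma, had 0 in every library. The T cell list of 23 genes had 6 tested members, 3 with a positive fold change (median 0.20). Without JQ1, 5 were positive (median 0.54), and with JQ1, 2 were (median -0.91). The list summed to 20.7 and 22.8 CPM in vehicle, 33.6 and 14.2 with JQ1, 33.9 and 23.1 with anti-PD-1, and 12.2 and 14.8 with the combination. The range was thus 12.2 to 33.9 CPM with the antibody and 14.2 to 33.6 CPM without it. The list of regulatory and exhausted T cells had 5 tested members, all positive, of which Tox alone was separated. Tox counts ran from 50 to 346 in the antibody libraries, where Pdcd1 had at most 4. Cytotoxic and NK genes had 1 tested member of 16.

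Cd274, which encodes PD-L1, had 20 and 28 in vehicle, 15 and 19 with JQ1, 27 and 12 with anti-PD-1, and 7 and 5 with the combination. Its level was 0.824 to 2.95 CPM with the antibody and 1.53 to 1.66 without it, which overlap. Pdcd1lg2, for PD-L2, had at most 6 counts. Cxcl9, a T cell attracting chemokine induced by interferon gamma, had 0 and 3 in vehicle, 10 and 0 with JQ1, 2 and 1 with anti-PD-1, and 1 and 6 with the combination. Of the other checkpoint ligands, Icosl had a log2 fold change of 1.38 (SE 0.46) and Tnfsf9, the ligand of CD137, -1.14 (SE 0.42). Neither was separated.

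Genes of the interferon gamma response had a positive fold change in 15 of 16 tested and a median of 0.68, 0.24 without JQ1 and 1.06 with it, but none was separated or called. With a term for the ribosomal RNA share the median was -0.09. Gbp2, a guanylate-binding protein, was at 2.75 and 2.24 CPM in vehicle, 7.66 and 2.79 with JQ1, 3.91 and 3.29 with anti-PD-1, and 8.0 and 15.7 with the combination and Iigp1, an immunity-related GTPase, at 0.382 and 0.689 CPM in vehicle, 4.40 and 1.48 with JQ1, 0.349 and 1.13 with anti-PD-1, and 5.47 and 34.1 with the combination. In both, combination replicate 2 was the highest and JQ1 replicate 1 was above the anti-PD-1 libraries. Nlrc5, the transactivator of MHC class I, was at 1.37 and 1.84 CPM in vehicle, 1.47 and 0.610 with JQ1, 3.0 and 2.16 with anti-PD-1, and 1.26 and 5.27 with the combination. MHC class I genes had a positive fold change in 14 of 17 and a median of 0.52 (0.20 with total counts scaling and 0.13 with the ribosomal RNA term), with the negative members Pdia3 (-0.53, SE 0.21) and Calr (-0.48, SE 0.20), chaperones of peptide loading, among those of smallest p. Type I interferon genes had a median of 0.03, which was -0.25 with total counts scaling and -0.37 with the ribosomal RNA term. Macrophage lists had medians of 0.10 for alveolar and 0.17 for tumour and interstitial macrophages (-0.20 and -0.11 with total counts scaling, -0.16 and 0.25 with the ribosomal RNA term), and neither held a separated gene.

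**Figure D4:**
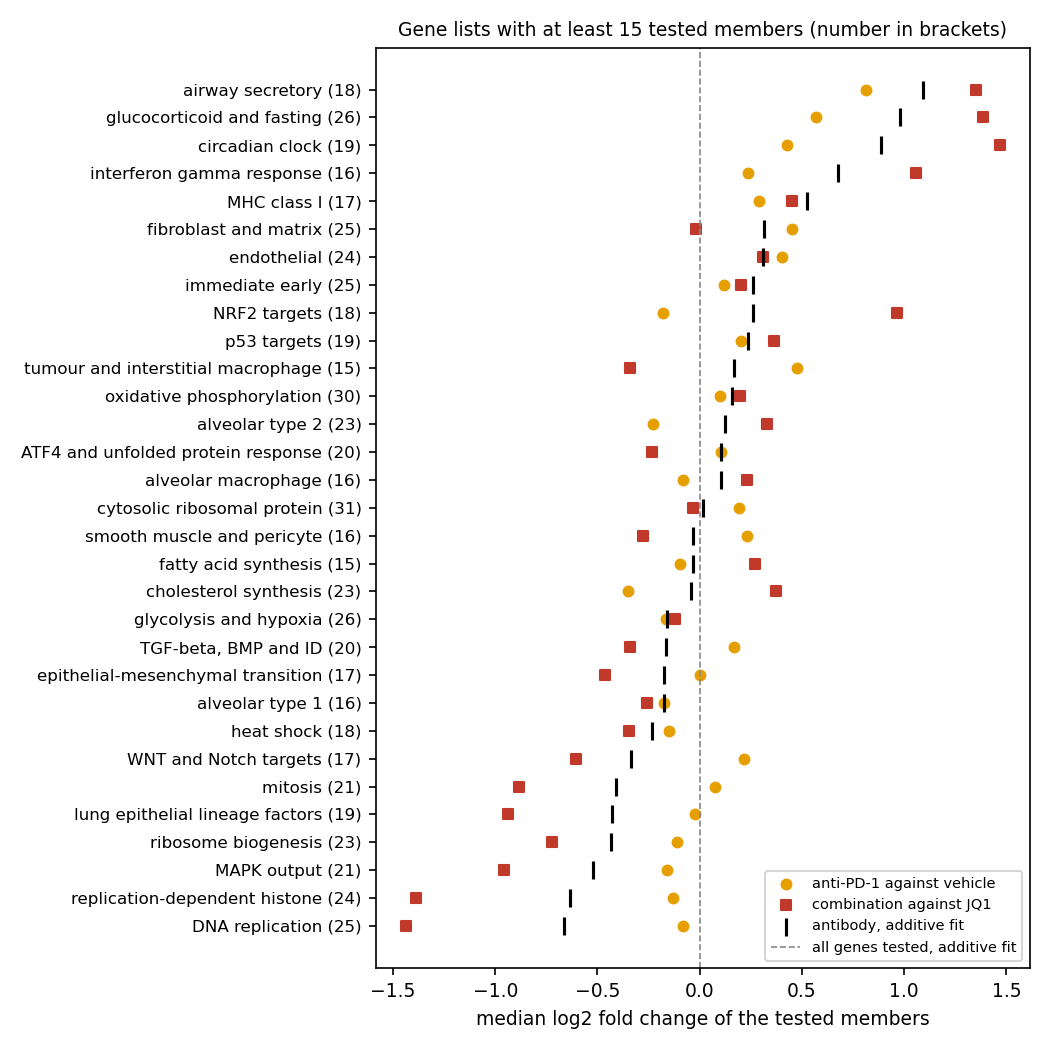
Median log2 fold change of the tested members of each gene list with at least 15 of them: anti-PD-1 against vehicle (circles), the combination against JQ1 (squares) and the additive fit (bars), with the median of all genes tested as the dashed line. Airway secretory, glucocorticoid and clock genes lie at the top and DNA replication and histone genes at the bottom, where the circles lie near 0 and the squares furthest to the left.

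Markers of other cells of the lung differed in how they lay between the sides. Airway secretory genes had the highest list median, 1.09 (0.60 with the ribosomal RNA term), with 14 of 18 positive and 2 fully separated, Cbr2 and Cyp2b10. Of all genes tested, 1.36% were fully separated and higher. Scgb1a1, the secretoglobin that defines club cells, was not separated at 5.35 and 3.5 CPM in vehicle, 77.9 and 22.5 with JQ1, 87.3 and 21.2 with anti-PD-1, and 305 and 244 with the combination. It was low in vehicle and higher in the other 3 groups, JQ1 included. Its log2 fold change was 3.01 (SE 0.58), with a DESeq2 adjusted p of 4.22e-07 and no edgeR call. Cyp2b10, a cytochrome of club cells, was at 1.99 and 3.67 CPM in vehicle, 2.83 and 3.05 with JQ1, 5.17 and 3.94 with anti-PD-1, and 15.2 and 10.9 with the combination. Aldh1a1, at 4.2 and 7.29 CPM in vehicle, 18.9 and 10.8 with JQ1, 9.22 and 13.1 with anti-PD-1, and 25.7 and 47.0 with the combination, overlapped. The list summed to 305 to 1180.1 CPM in the libraries with the antibody and 192 to 775 CPM in those without. Airway ciliated genes had 8 tested members, 6 of them positive, and a median of 0.57 (0.96 without JQ1 and -0.67 with it). They summed to 126 to 262 CPM with the antibody, lowest in the combination at 150 and 126, and to 200 to 332 CPM without it. The part of airway tissue in the nodules was not tested.

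Endothelial genes had a positive fold change in 21 of 24 and a median of 0.31, which total counts scaling brought to 0.01. Ednrb, an endothelin receptor of lung capillaries, was at 2.06 and 1.84 CPM in vehicle, 2.52 and 1.92 with JQ1, 3.84 and 3.47 with anti-PD-1, and 7.58 and 6.92 with the combination, with a gap of 1.38-fold. Tmem100, another gene of lung endothelium, was at 0.382 and 0.689 CPM in vehicle, 1.57 and 1.05 with JQ1, 1.68 and 1.78 with anti-PD-1, and 2.10 and 2.14 with the combination.

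Fibroblast and matrix genes had a median of 0.32 (-0.03 with total counts scaling) with 17 of 25 positive. Cxcl12, a chemokine of stromal cells, was separated at 16.9 and 27.4 CPM in vehicle, 28.2 and 31.6 with JQ1, 57.7 and 64.4 with anti-PD-1, and 34.9 and 32.5 with the combination, and its antibody libraries were high without JQ1 and only just above the rest with it. Dcn, decorin, at 1.99 and 1.43 CPM in vehicle, 5.03 and 3.31 with JQ1, 4.68 and 7.23 with anti-PD-1, and 7.15 and 12.9 with the combination, narrowly overlapped. Its log2 fold change was 1.54 (SE 0.33), with a DESeq2 adjusted p of 0.011 and no edgeR call. Inmt, a methyltransferase of lung fibroblasts, had 1.18 (SE 0.33), and Mfap5 was separated at low levels of 0.845 to 2.53 CPM against 0.0872 to 0.839.

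Of the alveolar type 2 genes 12 of 23 were positive, with a median of 0.12 (-0.19 with total counts scaling, -0.23 without JQ1 and 0.33 with it), and alveolar type 1 genes 5 of 16 and -0.18. Of gastrointestinal genes that lung tumours can express, 4 of 13 were positive (median -0.52, -0.20 without JQ1 and -0.02 with it), and Gkn2, a gastrokine, was separated at 14.8 to 37.4 CPM with the antibody against 42.2 to 271 without it.

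Of 24 striated muscle genes 9 were tested, and a single gene, Myh7, held most of their summed level in every library. The list summed to 5383 CPM in vehicle replicate 1 and 677 CPM in combination replicate 2. Myh7, the slow myosin heavy chain of heart and muscle, was at 4817 and 3458 CPM in vehicle, 2137 and 3387 with JQ1, 3958 and 2924 with anti-PD-1, and 1053 and 595 with the combination. Myh6 followed it at 64.8 to 508 CPM with the antibody and 242 to 524 without it. The source of these reads was not tested. Both were lowest in the combination. The striated muscle list as a whole had a positive fold change in 7 of 9 tested members, with a median of 0.49, 1.12 without JQ1 and -0.74 with it, while Nppa, Sln and Myl1 of the same list had no count in any library.

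The fully separated genes were unevenly spread over the chromosomes. Chromosome 15 held 17 higher genes and 1 lower of 520 tested, chromosome 4 held 15 and 2 of 818, chromosome 17 held 14 and 2 of 662, chromosome 14 held 11 and 3 of 462, chromosome 10 held 10 and 4 of 618, and chromosome 18 held 10 and 2 of 361. On the other side, chromosome 2 held 8 higher and 30 lower of 1088, chromosome 11 held 11 and 24 of 1081, chromosome 16 held 4 and 10 of 416, and chromosome 19 held 5 and 13 of 450. As shares of the tested genes, higher genes made up 3.27% on chromosome 15 and 0.735% on chromosome 2, and lower genes 0.192% and 2.76%, beside 1.36% and 1.25% over all genes. On these chromosomes the medians of all tested genes in the additive fit lay in the same directions, but not always within a JQ1 background. The median of chromosome 4 was 0.08 (-0.04 without JQ1 and 0.24 with it), and that of chromosome 10 was 0.05 (0.17 and -0.08). The median log2 fold change was 0.22 on chromosome 15 (0.17 without JQ1 and 0.28 with it) and 0.21 on chromosome 18 (0.20 and 0.20), with positive fold changes in 71.0% and 73.4% of genes. On chromosome 2 it was -0.12 (-0.05 without JQ1 and -0.20 with it) and on chromosome 7 -0.13 (0.01 and -0.26), with 36.1% and 36.4% positive. By library, the median deviation of chromosome 18 genes from each gene's mean over the 8 libraries was -0.01 to 0.24 with the antibody and -0.18 to -0.03 without it. Chromosome 18 alone, of the 20 chromosomes looked at, had sides that did not overlap. For chromosome 15 they overlapped, at -0.06 to 0.29 and -0.26 to 0.12. Total counts scaling moved the medians of chromosomes 15 and 18 to -0.06 and -0.08, still above the median of all genes under that scaling, and a term for the ribosomal RNA share moved them to 0.05 and 0.13. Genes of a chromosome are not independent of each other in these libraries.

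**Figure D5:**
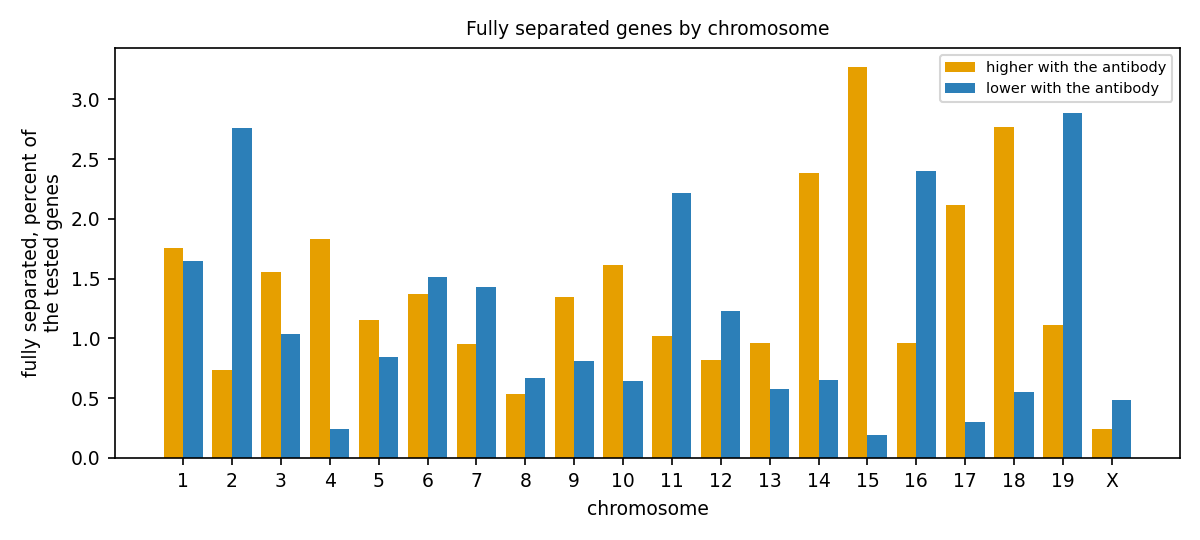
Share of the tested genes of each chromosome that were fully separated, in percent, higher (left bar) and lower (right bar) with the antibody. Chromosomes 4, 10, 14, 15, 17 and 18 hold mostly higher genes, and chromosomes 2, 11, 16 and 19 mostly lower genes.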

How the data were processed

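RNA was captured with probes for coding regions (TruSeq RNA Access) from frozen tumour nodules, per the labels' protocols. Per the submitters' processing notes, bcl2fastq, STAR, featureCounts and DESeq2 were used with mm10 and GRCm38, with versions and strand settings not given in the sources used here. Deposited counts are whole reads per gene symbol. The deposited normalized values are a signal, the counts divided by 1 factor per library: all values came out whole within 0.05 reads when multiplied back (100%).

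Counts were tested with edgeR 4.0.16 (robust quasi-likelihood, TMM factors, filterByExpr) in R 4.3.3, with JQ1 and antibody as terms, 5 residual degrees of freedom, a biological coefficient of variation of 0.341 and Benjamini-Hochberg adjustment over all 14085 genes, with calls at 0.05. Effects within a JQ1 background and their difference came from a fit with a mean per group (4 residual degrees of freedom). SE denotes the standard error of a log2 fold change, and fitted folds use a prior count of 0.125. Full separation used CPM scaled by TMM factors. The fits were tested on simulated data. Named were the 15 separated genes of smallest p per direction with mean log2 CPM of at least 1, called genes, up to 3 members of smallest p per list, 11 genes of PD-1 and T cells, and 3 genes per direction of smallest interaction p; no rank named predicted genes, receptor segments, ribosomal RNA or sex-specific genes. Other clock genes, Klf9, Id1, Nop2 and other separated list members, Tgfb2, Cbr2 and Mfap5, and Ddit4, were named after their values were seen. The model's alleles and 4 genes that the rule named are not reported here. The members and the 49 gene lists were chosen with earlier results of these data known. Symbols were matched to GENCODE vM21 (GRCm38) for 13813 tested genes, with 1-based coordinates. Ribosomal RNA is the sum of 358 genes. Alternatives were other scalings, filters, DESeq2 1.42.0, limma 3.58.1 (voom, and trend on log2(normalized value + 1)), a mean per group, no JQ1 term, terms for sex and ribosomal RNA, removal of ribosomal RNA genes, and leaving out each library. Added after seeing the data were total counts scaling for the test, the reads recovered from the normalized table, on which edgeR called 0 genes, and leaving out both combination libraries.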

Additional observations from a re-analysis of the deposited data

Results flagged for a closer look

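In 156 groups of 4 libraries examined for a library far from the others, where chance gives about 1 in 20, 5 stood apart. Per1 was at 280.0 CPM in combination replicate 2 against 70.4 to 86.7 in the other antibody libraries. Pdk4 was at 56.5 CPM in anti-PD-1 replicate 1 against 12.6 to 15.6 in the others. Hhex was at 4.45 CPM in combination replicate 2, below 8.55 to 9.29. Without the antibody, Gbp2 was at 7.66 CPM in JQ1 replicate 1 against 2.24 to 2.79, and Antxr1 at 55.3 CPM in JQ1 replicate 2, where the others were all at 49.8. Trim6, a tripartite motif ubiquitin ligase, was at 5.19 and 5.91 CPM in vehicle, 5.66 and 6.10 with JQ1, 1.47 and 1.88 with anti-PD-1, and 15.6 and 11.4 with the combination. It was lower in both anti-PD-1 libraries than in both vehicle libraries and higher in both combination libraries than in both JQ1 libraries. The 2 effects differed by 2.91 on the log2 scale, which did not pass edgeR's test of the difference (adjusted p 0.745).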

How the results depend on the processing

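No paired analysis was possible because the labels give no replicate numbers, and those used here follow accession order. For the antibody over both backgrounds, 0 genes were called with TMM factors, and also with RLE, upper-quartile and total counts scaling, a mean count of at least 50, voom, trend, no JQ1 term, a sex term, the ribosomal RNA term, without ribosomal RNA genes, and without both combination libraries. DESeq2 called 66 (37 of them fully separated), a mean per group 2, and no filter 294. Without the filter 26426 genes entered, the prior degrees of freedom were infinite for 85.6% of them (median 7.1 with the filter), and 279 of the 294 were in the filtered table, 81 of them fully separated. Leaving out 1 library, which leaves a group with a lone library assumed to vary like the other groups, gave 0 to 1 calls, the 1 being Pax9 without JQ1 replicate 2. Without JQ1, DESeq2 called 9 and leaving out 1 library gave 0 to 1. With JQ1, 3 were called, DESeq2 called 410 and leaving out 1 library gave 0 to 100. For the difference between backgrounds DESeq2 called 16 and leaving out 1 library gave 0 to 1. A mean count of at least 50 left 236 fully separated genes of 8576 tested, in place of 367. Subtracting the JQ1 effect gave 900, and leaving out 1 library, which leaves fewer values to separate, gave 571 to 1009. RLE factors gave 360, upper-quartile factors 364, no filter 518 and total counts scaling 492, sharing 61 of the 191 higher and 159 of the 176 lower. Of the named genes, Iigp1 was at -0.31 with the ribosomal RNA term, and leaving out 1 library took Arntl from -0.29 to 0.14; the cause was not tested. The 2719816 counts of combination replicate 1 limit every gene of low level.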

Other observations

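Further gene groups lay between the sides as follows. Genes encoded in mitochondrial DNA had a positive fold change in 10 of 10 tested (median 0.49, 0.19 with total counts scaling) with none separated, beside 0.16 (-0.14 under that scaling) for the nuclear genes of oxidative phosphorylation. Of 20 genes of the ATF4 and unfolded protein response 2 were separated, both higher: Atf4, the stress factor itself, at 45.4 and 50.0 CPM in vehicle, 49.9 and 41.9 with JQ1, 51.1 and 74.5 with anti-PD-1, and 58.5 and 55.5 with the combination, and Herpud1, of degradation at the endoplasmic reticulum, at 116 and 93.5 CPM in vehicle, 82.5 and 73.0 with JQ1, 168 and 179 with anti-PD-1, and 149 and 470.2 with the combination. Over all genes tested, 1.36% were separated and higher. The list median was 0.11 (-0.18 with total counts scaling). Acute phase and complement genes had a positive fold change in 10 of 12 (median 0.56, 0.27 with total counts scaling and 0.06 with a term for the ribosomal RNA share). Of the p53 targets 13 of 19 were positive (median 0.24, -0.05 with total counts scaling and 0.07 with the ribosomal RNA term), with Trp53inp1 at 1.33 (SE 0.39) and Perp at 1.26 (SE 0.44) beside Sesn1.

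Neural and neuroendocrine genes had a negative fold change in 6 of 10 tested (median -0.53, -0.21 without JQ1 and -1.59 with it). Glycolysis and hypoxia genes were negative in 19 of 26 (median -0.16). Cholesterol synthesis genes had medians of -0.35 without JQ1 and 0.37 with it, and targets of NRF2 -0.18 and 0.96. Elovl6, a fatty acid elongase, was separated and lower, at 6.57 and 4.82 CPM in vehicle, 9.23 and 8.63 with JQ1, 3.91 and 2.44 with anti-PD-1, and 4.21 and 3.63 with the combination. These values are given without a test of the groups.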
